A study of Mus musculus with 18 samples.

Results

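The 94 genes described here encode the nuclear part of the mitochondrial respiratory chain and of ATP synthase. They are the protein-coding genes of GENCODE M21 whose symbols begin with Nduf (complex I), Uqcr (complex III), Cox4 to Cox8 (complex IV) or Atp5 (ATP synthase), together with Sdha, Sdhb, Sdhc and Sdhd (complex II). They are 94 of the 54446 genes in the deposited count table and carry 93 symbols, since Atp5o is listed under 2 identifiers. By role, 7 encode core subunits of complex I, 29 its accessory subunits and 8 its assembly factors. A further 4 encode complex II, 8 complex III, 11 the common subunits of complex IV, and 9 its tissue isoforms or paralogs. Of the ATP synthase genes, 5 encode the F1 head, 12 the membrane part and stalks, and 1 (Atp5s) a coupling factor.

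Nuclear RNA of mouse embryonic stem cells (C57BL/6), ribodepleted, was sequenced in 18 libraries, 2 for each of 9 groups. Libraries labelled Ythdc1_cKO (conditional knockout of Ythdc1, whose protein binds m6A-modified RNA in the nucleus) and Ythdc1_Control libraries were taken at 0, 3 and 6 h of actinomycin D (5 µg/ml), which blocks transcription. Libraries labelled Mettl3_KO1 and Mettl3_KO2 (knockout lines for the catalytic subunit of the enzyme that writes m6A) and Mettl3_Control libraries were taken at 0 h. The design asks how nuclear RNA decays without YTHDC1 and how nuclear RNA levels differ without METTL3. All groups grew in serum medium with LIF, CHIR99021 (3 µM) and PD0325901 (1 µM), and were used after 48 h in culture. How and when Ythdc1 was deleted, and whether each Mettl3 line is 1 clone, is not given in the sources used here, nor whether the 2 libraries of a group came from separate cultures, so p-values measure only the spread between these libraries, which may be technical.

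Electrons from NADH enter the chain at complex I and those from succinate at complex II. They pass through complex III and cytochrome c to complex IV, which reduces oxygen, and the proton gradient built on the way drives ATP synthase. A few catalytic core subunits are encoded in the mitochondrial genome and made in the organelle. All other subunits are transcribed in the nucleus and imported as proteins. Nuclear respiratory factor 1 (NRF1), the ETS factor GABP and YY1 are known activators of many of these genes. Naive mouse embryonic stem cells use both glycolysis and respiration.

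Promoter sequences of 3 members are shown because the letters searched for NRF1, ETS factors and YY1 lie close to their starts. Each is the 120 bases before the RefSeq start on GRCm38.p6, 5′ to 3′ on the gene's strand. Capitals mark the NRF1 palindrome (with 1 free base), the ETS letters CCGGAAG or their reverse complement, and the YY1 motif. Ndufaf4 (chr4:24897963-24898082, plus strand) encodes a complex I assembly factor, Cox6a1 (chr5:115348959-115349078, minus strand) a complex IV subunit, and Atp5j (chr16:84834977-84835096, minus strand) coupling factor 6 of ATP synthase.
Ndufaf4: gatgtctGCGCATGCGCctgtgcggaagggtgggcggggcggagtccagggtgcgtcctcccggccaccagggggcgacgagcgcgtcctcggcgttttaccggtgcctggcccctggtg
Cox6a1: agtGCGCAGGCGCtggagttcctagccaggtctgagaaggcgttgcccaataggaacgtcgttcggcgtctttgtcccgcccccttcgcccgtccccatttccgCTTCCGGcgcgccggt
Atp5j: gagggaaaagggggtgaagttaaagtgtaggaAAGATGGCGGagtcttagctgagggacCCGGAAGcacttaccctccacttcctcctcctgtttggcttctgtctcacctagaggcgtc

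In 300-base RefSeq windows (250 bases before the start to 50 after it, both strands searched), which matched 74 of the 93 symbols, the NRF1 palindrome lay in 19 members (25.7%), against 4.68% of all 27025 windows and 6.70% of 16514 of protein-coding symbols. The ETS letters lay in 18 members (24.3%), against 9.08% of all windows and 12.2% of those of protein-coding symbols. The YY1 motif lay in 6 members (8.11%), against 0.91% of all windows and 1.37% of those of protein-coding symbols. The estrogen-related receptor letters AAGGTCA lay in 8 members (10.8%) and in 4.66% of all windows. The GC box GGGCGG was in 32 members (43.2%), against 35.6% of all windows and 47.5% of protein-coding ones. Either the NRF1 or the ETS letters lay in 33 of the 74 members. These matches describe letters and do not show binding. The windows of the 69 mitochondrial ribosomal protein genes held the NRF1 letters in 18.8%, the ETS letters in 37.7% and the YY1 motif in 7.25%.

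Each library held between 4950973 and 30989044 gene reads and between 3932 and 33396 spike-in reads. The cKO 3 h libraries stood apart in their spike-ins, with 44.8 and 45.5 member reads per spike-in read, against 6.13 to 12.1 in the other Ythdc1 libraries. All 8 stem cell markers were present in every library, and their summed level was 2489 to 3877 CPM (marker sums are scaled to the gene reads of the library, without TMM factors). Of 8 fibroblast feeder markers, at most 2 were at 0 in a library, and their sum, 2599 to 5649 CPM, was mostly Fn1 (2529 to 4971 CPM). The targeted genes did not bear out every label. On the scale used for single genes below (CPM with TMM factors), Ythdc1 had 143 and 120 CPM in libraries labelled cKO at 0 h, against 145 and 132 CPM in control, a log2 fold change of -0.07 ± 0.079 (SE, n = 2 each, edgeR adjusted p = 0.557). At 3 h it had 14.5 and 15.3 CPM in libraries labelled cKO, against 51.9 and 50.3 CPM in control. Mettl3 had 32.6 and 31.3 CPM in KO1 and 22.7 and 22.1 CPM in KO2, against 36.6 and 31.9 CPM in the Mettl3 control. Its log2 fold change was -0.10 ± 0.077 in KO1 (edgeR adjusted p = 0.316) and -0.61 ± 0.081 in KO2 (7.45e-10). Counts over a whole gene do not show a deleted exon, and the groups are therefore called by their labels. How the counting treated strand is not stated, and exons of 29 members overlap those of another gene on the opposite strand, so the counts of these 29 are uncertain. Among those named below they include Atp5a1 (Haus1), Ndufa2 (Tmco6), Ndufs1 (Eef1b2), Ndufs3 (Kbtbd4), Ndufab1 (Gm44986), Ndufaf3 (Impdh2), Cox5a (Gm26631), Cox6c (Vps13b) and Atp5l (Gm30934). Exons of 6 members, Atp5g2 and both of Atp5o among them, overlap those of another gene on the same strand.

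Before the drug, the members took 0.621% and 0.654% of gene reads in libraries labelled cKO and 0.766% and 0.764% in the Ythdc1 control. Levels between genes are given per length, as CPM per kilobase of annotated exon, in the Ythdc1 control at 0 h. Atp5b, which encodes the catalytic beta subunit of ATP synthase, was the highest at 332 ± 2.89 (SD, n = 2). It was followed by Cox8a at 250 ± 5.71, Atp5a1 (the alpha subunit) at 240 ± 1.70, Uqcr10 at 208 ± 0.0454, and Cox6a1 at 178 ± 4.48 CPM per kilobase. The libraries of neighbours in this order did not overlap, Cox8a and Atp5a1 lying closest, at 246 and 254 for Cox8a and 242 and 239 for Atp5a1. Complex II genes stood at 59.7 ± 3.08 (Sdhd), 59.6 ± 0.114 (Sdha), 26.3 ± 1.52 (Sdhb) and 10.8 ± 1.20 (Sdhc) CPM per kilobase, so that Sdhd and Sdha could not be separated. The assembly factors of complex I ranged from 4.09 (Ndufaf7) to 12.2 (Ndufaf8) CPM per kilobase.

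The c-ring of ATP synthase is made of 1 protein that 3 genes encode with different import sequences. Per kilobase of exon, Atp5g3 stood at 45.2 ± 0.140 CPM, Atp5g2 at 13.1 ± 0.101 and Atp5g1 at 10.9 ± 0.529 (SD, n = 2) in the Ythdc1 control at 0 h. In the Mettl3 control they stood at 28.7, 22.0 and 8.62 CPM per kilobase in that order. The annotated exons that these levels are divided by total 2181, 1675 and 4912 bases in the same order. The order of Atp5g2 and Atp5g1 therefore depends on the annotation, which the SDs do not cover.

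Tissue isoforms of complex IV were low or at 0, with exceptions. Cox8b and Cox6a2, known from heart and muscle, had no read in any Ythdc1 control library, and Cox6a2 had 1 read in 1 cKO library. In the Mettl3 libraries Cox8b had 5 to 19 and Cox6a2 1 to 21 reads. Cox8c and Cox7b2, known from testis, had at most 7 and 24 reads in a library. Cox4i2, the isoform known from lung, stood at 0.691 ± 0.393 CPM per kilobase in the Ythdc1 control at 0 h. Cox7a1, the heart and muscle isoform, stood at 31.7 ± 2.79 and Cox6b2, the testis isoform, at 21.1 ± 2.99 CPM per kilobase. The second Atp5o identifier had 0 reads in all 18 libraries. Of the 94 members, 90 passed the expression filter in each experiment. Atp5o (second identifier), Cox6a2 and Cox8c failed it in both, Cox8b in the Ythdc1 and Cox7b2 in the Mettl3 libraries.

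During the transcription block in control cells, nuclear RNA of the respiratory chain genes gained on that of other genes. At 3 h, 81 of 90 members tested were called higher than at 0 h and 2 lower, where 29.3% of all 17900 genes tested were called higher and 27.1% lower (edgeR adjusted p below 0.05). At 6 h, 80 were higher and 1 lower, against 33.1% and 31.7% of all genes. The median log2 fold change of the members was 0.84 at 3 h and 1.13 at 6 h, against 0.07 and 0.03 for all genes tested. These changes are relative, since TMM scaling sets the typical gene near 0. Of all gene reads the members took 0.766% and 0.764% before the drug, 1.30% and 1.34% after 3 h, and finally 1.56% and 1.57% after 6 h. In bulk RNA, fewer cells of a type and less RNA per cell cannot be told apart.

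**Figure D1:**
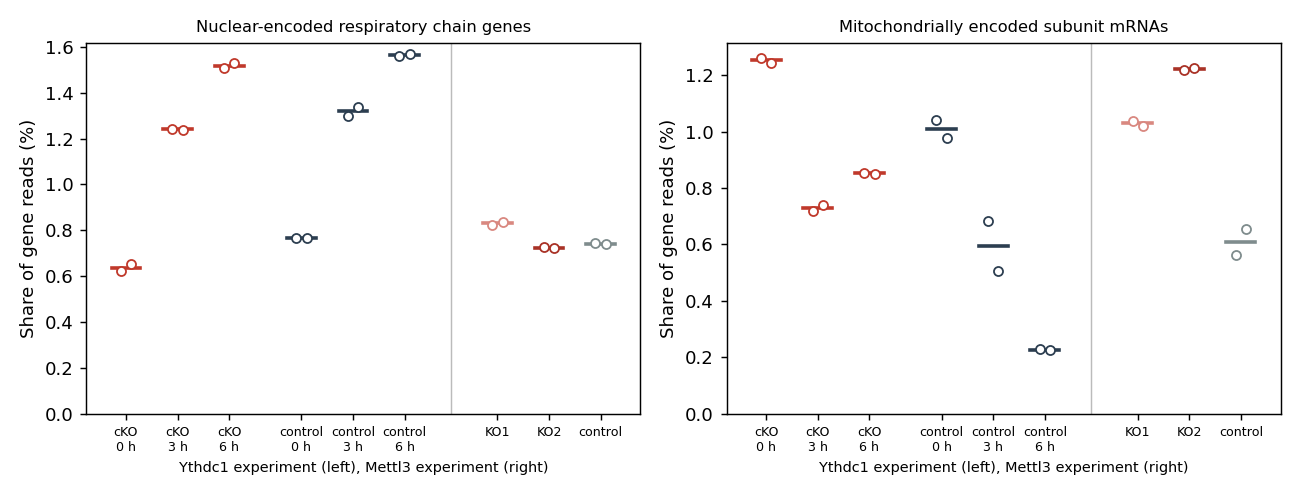
Share of gene reads (%, vertical axis) taken by the 94 nuclear-encoded members (left) and by 13 mitochondrially encoded subunit mRNAs (right) in each library (circles) with the group mean (bars), 2 libraries a group. The members' share was 1.51% and 1.53% in cKO and 1.56% and 1.57% in control libraries at 6 h, above every 0 h library, while the mitochondrially encoded share was 0.228% and 0.225% in control libraries at 6 h.

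At 3 h the member that had risen most was Ndufa1, an accessory subunit of complex I. It had 31.6 and 35.4 CPM in control at 3 h, against 10.4 and 9.93 CPM at 0 h, a log2 fold change of 1.72 ± 0.123 (SE, n = 2 each, edgeR adjusted p = 1.38e-14). Cox7a1, an isoform gene of complex IV, stood at 1.50 ± 0.102, Ndufs5 of complex I at 1.43 ± 0.170 and Uqcr11 of complex III at 1.28 ± 0.072, and Cox6c led the common complex IV subunits at 1.17 ± 0.064. Ndufs3, a core subunit of complex I, stood at -0.29 ± 0.164 (adjusted p = 0.132).

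By median, the common complex IV subunit genes (1.51), complex III genes (1.45) and complex I accessory genes (1.43) stood highest at 6 h in control cells. All 11 common complex IV subunit genes rose. Cox4i1, which encodes the largest nuclear-encoded subunit of the complex (ENSMUSG00000031818.12, mm10 chr8:120668222-120674207), had 200.1 and 204.4 CPM at 0 h, 415.8 and 470.1 CPM at 3 h, and 825.5 and 860.5 CPM at 6 h. The groups did not overlap, and the 6 h change was 2.06 ± 0.056 (SE, n = 2 each, edgeR adjusted p = 2.51e-27). Reads of Cox4i1 and of Emc8, which overlaps it on the opposite strand, can be told apart only by strand, and the strand setting of the counting is not given. Cox6a1 had 127 and 123 CPM at 0 h, 273 and 278 CPM at 3 h, and 615 and 597 CPM at 6 h, a rise of 2.28 ± 0.070 at 6 h. The smallest rise among these subunits at 6 h was that of Ndufa4, once assigned to complex I and now to complex IV, at 0.67 ± 0.066.

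All 8 complex III genes rose at both times on the TMM scale. Uqcr11, a small accessory subunit, had 53.7 and 61.5 CPM at 0 h, 137 and 144 CPM at 3 h, and 260 and 280 CPM at 6 h, a log2 fold change of 2.22 ± 0.072 at 6 h (edgeR adjusted p = 4.64e-25). Uqcrfs1, which encodes the Rieske iron-sulfur protein of the complex, rose least, by 0.37 ± 0.081. Its 6 h libraries had 65.0 and 69.3 CPM, against 52.6 and 51.3 CPM at 0 h. The complex II genes rose together by smaller amounts, with 6 h log2 fold changes of 1.19 ± 0.075 for Sdhb (the iron-sulfur subunit), 1.09 ± 0.095 for Sdhc, 0.96 ± 0.053 for Sdha (the flavoprotein) and 0.56 ± 0.073 for Sdhd (a membrane anchor, as Sdhc).

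Of 36 complex I subunit genes, 34 rose at 6 h and none was called lower. Ndufa2 rose most, at 2.01 ± 0.089, and Ndufs8, a core iron-sulfur subunit, led the core subunits at 1.44 ± 0.089. Ndufs1, the largest core subunit, had 175 and 170 CPM at 6 h, against 153 and 151 CPM at 0 h, a rise of only 0.18 ± 0.067 (edgeR adjusted p = 0.0171). Its call ended without replicate 2 of control at 0 h (0.16, adjusted p = 0.108), and also without control 0 h replicate 1 or control 6 h replicate 1. Ndufab1, the mitochondrial acyl carrier protein that is also a complex I subunit, stood at -0.08 ± 0.111 (adjusted p = 0.568), and its libraries overlapped.

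The assembly factors of complex I behaved less uniformly, with 4 of 8 higher and 1 lower at 6 h and a median of 0.39. The lower one was Ndufaf4 (ENSMUSG00000028261.13, mm10 chr4:24898083-24905001), whose promoter is printed above. It had 18.5 and 17.0 CPM at 0 h, 10.7 and 8.59 CPM at 3 h, and 3.28 and 6.93 CPM at 6 h. Both later groups lay below both 0 h libraries, with log2 fold changes of -0.88 ± 0.179 at 3 h and -1.75 ± 0.208 at 6 h (edgeR adjusted p = 8.27e-05 and 3.82e-09). Ndufaf3 rose by 0.85 ± 0.161.

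ATP synthase genes rose in both parts of the enzyme, 5 of 5 tested in F1 and 10 of 11 in the membrane part and stalks. Atp5e, the epsilon subunit, had 17.9 and 20.8 CPM at 0 h, 37.4 and 47.9 CPM at 3 h, and 97.4 and 96.3 CPM at 6 h. Its 6 h change of 2.31 ± 0.107 was the highest of all members, while Atp5c1, the gamma subunit, rose by 0.47 ± 0.061. Atp5l, subunit g, was lower at 3 h (-0.41 ± 0.122, edgeR adjusted p = 0.00463) and stood at 0.15 ± 0.122 at 6 h (0.281). The 3 h call ended without replicate 1 of control at 3 h, where the value was -0.33 (adjusted p = 0.0552). The isoform genes also moved: Cox7a1 had 67.8 and 73.0 CPM at 6 h, against 18.0 and 15.9 CPM at 0 h, a rise of 2.07 ± 0.101.

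RNAs of related functions did not all follow. The subunit mRNAs made inside mitochondria moved the other way, with 10 of 10 tested lower at 6 h in control cells and a median log2 fold change of -2.98. Among them mt-Cytb, the cytochrome b of complex III, fell by 3.75 on the log2 scale (SE 0.074). Of 13 subunits and carriers outside the symbol rule, 12 rose at 6 h, with Atpif1 (the inhibitor of ATP synthase) at 1.47 ± 0.073 and Cyc1 (cytochrome c1) at 1.39 ± 0.063. Assembly factors outside the rule were mixed, with 17 of 44 higher and 14 lower at 6 h. Uqcc2 (complex III assembly) rose by 1.25 ± 0.094, while Tmem186 (complex I assembly) changed by -1.45 ± 0.148. Of 18 regulators of respiratory genes tested, 4 rose and 12 fell at 6 h, among those that fell Pprc1 (a coactivator, -1.09 ± 0.060) and Yy1 (-1.14 ± 0.082), while Polrmt, the mitochondrial RNA polymerase, rose by 1.15 ± 0.075.

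Other housekeeping families were set beside the members at 6 h in control cells. Cytosolic ribosomal protein genes were called higher in 73 of 87 and lower in 5, at a median of 1.00. Proteasome subunit genes were called higher in 29 of 38 and lower in 5, at a median of 0.55. Mitochondrial ribosomal protein genes were called higher in 37 of 77 and lower in 17, at a median of 0.18. The median of all 14147 protein-coding genes tested was 0.14. Over these hours the share of 3 nuclear-retained RNAs (Malat1, Neat1 and Kcnq1ot1) in control gene reads was 0.943% ± 0.045, 0.858% ± 0.034 and 0.567% ± 0.007 (SD, n = 2) at 0, 3 and 6 h. The 3 RNAs did not move alike (CPM without TMM factors). At 3 h Malat1 had 8393 and 7960 CPM, against 8404 and 7786 CPM at 0 h. Neat1 had 57.7 and 49.0 CPM, against 222 and 218 CPM, and Kcnq1ot1 372 and 335 CPM, against 1126 and 1107 CPM. Their own transcription was blocked too, so their share does not measure the purity of the nuclear fraction. The part of that purity in the members' changes was not tested.

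On a spike-in scale, which shifts the values of all genes alike, the members' gain in control cells was smaller. There 59 members were higher and 6 lower at 3 h, and 43 higher and 22 lower at 6 h. Some members described above as rising stood below 0 at 6 h on that scale. Among them were Ndufs1 (-0.74), Uqcrfs1 (-0.55), Atp5c1 (-0.45), Sdhd (-0.36), Ndufa4 (-0.24) and Ndufaf3 (-0.0719). Uqcrfs1 also stood below 0 at 3 h (-0.14). The members' median was 0.31 at 3 h and 0.21 at 6 h, against -0.46 and -0.88 for all genes tested. Their reads per spike-in read were 9.63 and 9.91 before the drug, 11.8 and 12.1 after 3 h, and 12.1 in both libraries after 6 h.

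Libraries labelled cKO showed the same broad course over 6 h. At 3 h, 73 of 90 members were higher than at 0 h and 7 lower, against 29.6% and 29.8% of all genes tested. At 6 h, 80 were higher and 1 lower, against 29.6% and 31.3% of all genes. Their median log2 fold change was 0.83 at 3 h and 1.33 at 6 h. On a spike-in scale, 51 members were higher and 13 lower in cKO libraries at 6 h, with a median of 0.35, where that of all genes was -0.96. Of the 90 members, 78 were called higher at 6 h both in cKO and in control libraries, 1 lower in both, and none in opposite directions. Across members, Pearson's r between the 6 h changes in cKO and in control, which share no library, was 0.809 (90 genes of the same libraries, not independent replicates), against 0.787 over all 17900 genes. At 3 h it was 0.595, against 0.794 over all genes, and 3 members were called in opposite directions.

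**Figure D2:**
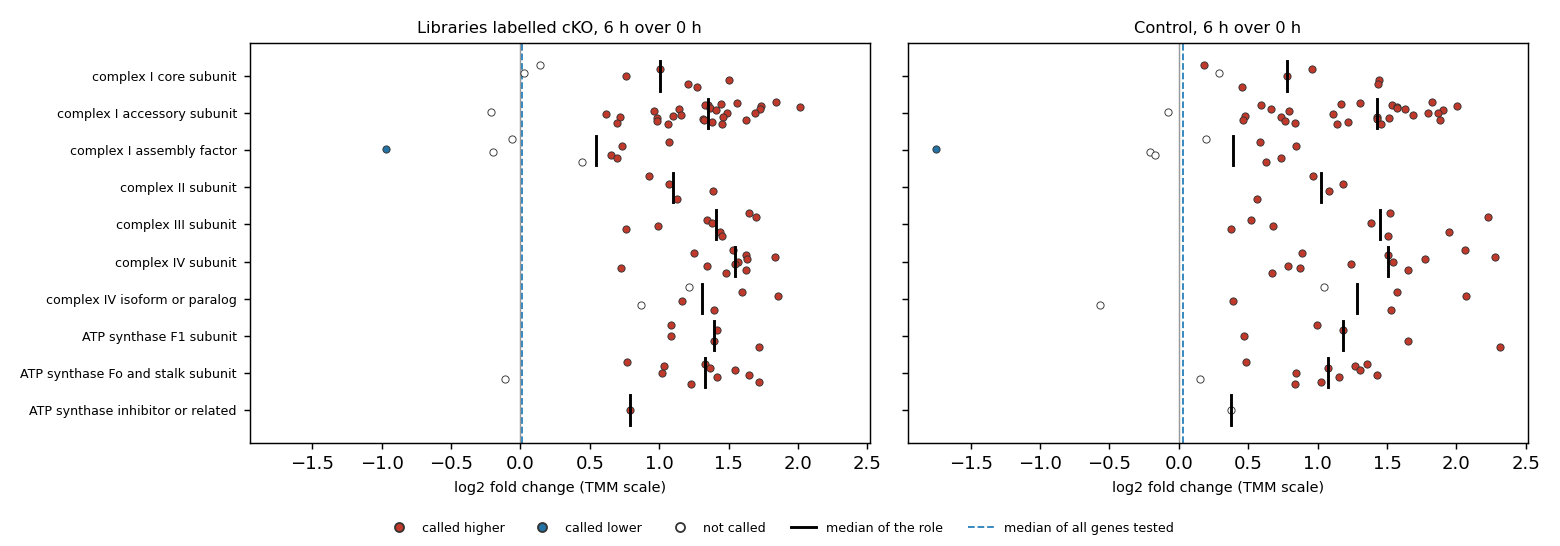
Change in nuclear RNA after 6 h of actinomycin D for the 90 members tested, by role (rows), in libraries labelled cKO (left) and control (right). The horizontal axis is the log2 fold change from edgeR on the TMM scale. Points are genes, black bars role medians, and the dashed line the median of all genes tested. In both panels Ndufaf4, an assembly factor, is the sole member called lower, at -0.97 in cKO and -1.75 in control.

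By 6 h in cKO libraries, every common complex IV gene (11 of 11), complex III gene (8 of 8), complex II gene (4 of 4) and F1 gene (5 of 5) had risen on the TMM scale. Scaled to spike-in reads, 3 of these stood below 0, with Cox7c at -0.25 ± 0.095, Uqcrfs1 at -0.21 ± 0.090 and Sdha at -0.0439 ± 0.058. Cox6a1 had 446.2 and 487.9 CPM at 6 h, against 117.3 and 145.4 CPM at 0 h, a log2 fold change of 1.83 ± 0.070 (SE, n = 2 each, edgeR adjusted p = 5.31e-20). Ndufa3, an accessory subunit of complex I, rose most, by 2.01 ± 0.098, with 148 and 149 CPM in cKO libraries at 6 h, against 31.7 and 41.8 CPM at 0 h. Its exons overlap Tfpt on the opposite strand. The complex II genes rose by 1.39 ± 0.100 (Sdhc), 1.13 ± 0.076 (Sdhd), 1.07 ± 0.082 (Sdhb) and 0.93 ± 0.053 (Sdha). Of the regulators 5 of 18 rose and 11 fell, with Slirp, an RNA-binding protein of mitochondria, at 1.20 ± 0.123 and Pprc1 at -1.62 ± 0.063. Ndufaf4 was again the one member called lower, with 9.38 and 8.69 CPM at 6 h, against 16.2 and 18.8 CPM at 0 h. The mitochondrially encoded mRNAs were lower in 9 of 10 tested at 6 h, with a median of -2.81. The summed read share of all 13 of these mRNAs was nonetheless 0.854% and 0.851% in cKO libraries at 6 h, against 1.26% and 1.24% there at 0 h. Control libraries at 6 h had 0.228% and 0.225%. Such a sum can be set by 1 abundant mRNA, so it does not show that these mRNAs as a set were higher in cKO libraries.

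The 3 h libraries labelled cKO held several members that had not moved or were lower. Atp5g1, one of the c-ring genes, had 34.7 and 29.4 CPM at 3 h, against 38.8 and 44.1 CPM at 0 h. Its change was -0.38 ± 0.092 (edgeR adjusted p = 0.000596), and -0.26 without replicate 2 of cKO at 3 h (adjusted p = 0.0531). Ndufab1 changed by -0.61 ± 0.111 and Ndufaf4 by -0.94 ± 0.181. Calls of lower values for Ndufs3 (-0.53), Ndufa12 (-0.50) and Ndufaf5 (-0.61) each ended on leaving out cKO 3 h replicate 2 (adjusted p = 0.128, 0.183 and 0.0539) and also on leaving out another single library. Ndufa12 stood at -0.32 without cKO 3 h replicate 2. Ndufs3 stood at -0.83 without cKO 0 h replicate 1 and at -0.16 without cKO 0 h replicate 2. Atp5k, subunit e of ATP synthase, was the highest, at 32.5 and 32.4 CPM at 3 h, against 7.38 and 6.93 CPM at 0 h, a log2 fold change of 2.18 ± 0.146. Without replicate 2 of cKO at 3 h, 2 members in place of 7 were called lower. With spike-in scaling, all 90 members were higher at 3 h, with a median of 2.66, where the median of all genes was 1.86. The low spike-in share of these libraries moves with that value, and its part in it was not tested.

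Before the drug, respiratory chain genes were on balance lower in libraries labelled cKO than in control. At 0 h, 3 members were called higher and 39 lower, against 13.5% and 15.8% of all genes tested. The median log2 fold change was -0.19, against 0.01 for all genes, and none reached 2-fold. After scaling to spike-in reads, 74 members were lower and none higher, with a median of -0.56, where that of all genes was -0.35.

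The lower members came from every complex, and the changes were small. Ndufa7, an accessory subunit of complex I, had 54.8 and 69.3 CPM in cKO libraries, against 102.8 and 104.7 CPM in control. Both cKO libraries lay below both control libraries, and the change was -0.74 ± 0.083 (SE, n = 2 each, edgeR adjusted p = 2.84e-08). Ndufv2, a core subunit with an iron-sulfur cluster, had 79.6 and 83.6 CPM in cKO libraries, against 129.6 and 125.5 CPM in control (-0.64 ± 0.077, adjusted p = 4.93e-08). Ndufs6 changed by -0.72 ± 0.106. Its exons overlap those of Mrpl36 on the opposite strand, so its counts are uncertain.

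Of the core complex I subunits 5 of 7 were lower, and of the 29 accessory subunits 7 were lower and 1 higher. Sdhb (-0.52 ± 0.082), Sdhd (-0.41 ± 0.077) and Sdha (-0.18 ± 0.053) of complex II fell, while Sdhc stood at -0.24 ± 0.106 (adjusted p = 0.0818). The Sdha call ended without either control library at 0 h (adjusted p = 0.0544 without replicate 1 and 0.0586 without replicate 2). In complex III 6 of 8 genes were lower. In complex IV 4 of 11 common subunit genes were lower, Cox5a most, at -0.43 ± 0.093, and the testis isoform gene Cox6b2 was at -0.75 ± 0.172. Cox5a stood at -0.27 without cKO 0 h replicate 2, and Cox6b2 at -0.47 without cKO 0 h replicate 1, both still called lower. Of the ATP synthase genes, 4 of 5 in F1 and 7 of 11 in the membrane part were lower, with Atp5c1 and Atp5j2 (subunit f) both at -0.52 (SE 0.063 and 0.067).

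The 3 higher members were Ndufa1 (0.45 ± 0.146, edgeR adjusted p = 0.0165), Ndufaf7 (0.45 ± 0.137, 0.0105) and Cox6c (0.21 ± 0.066, 0.0142). Each of these calls ended on leaving out single libraries. Ndufa1 was at 0.41 (adjusted p = 0.128) without control 0 h replicate 2 and at 0.36 (0.145) without cKO 0 h replicate 2. Ndufaf7 was at 0.31 (0.189) without cKO 0 h replicate 1 and at 0.41 (0.0708) without control 0 h replicate 1. Cox6c was at 0.19 (0.121) without control 0 h replicate 2 and at 0.16 (0.095) without cKO 0 h replicate 1.

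Other families moved with the members in this comparison. Of the proteasome genes 31 of 38 were lower and none higher (median -0.36). Cytosolic ribosomal protein genes were lower in 47 of 87 (median -0.21) and mitochondrial ribosomal protein genes in 26 of 77 (median -0.16). Of 10 mitochondrially encoded mRNAs tested, 2 were higher and none lower, among them mt-Cytb at 0.51 ± 0.064. The 3 nuclear-retained RNAs took 1.50% ± 0.081 of gene reads in cKO libraries, against 0.943% ± 0.045 in control. The summed feeder markers were at 3336 ± 144 CPM (without TMM factors) in cKO libraries, against 2675 ± 107 CPM in control. Fn1 made up most of that sum, with 3167 and 3367 CPM in cKO libraries, against 2529 and 2676 CPM in control. The other feeder markers did not all follow. Vim was lower, with 57.0 and 58.2 CPM in cKO libraries, against 64.4 and 67.9 CPM in control, and so was Thy1. Col1a1 (4.07 and 4.70 CPM, against 1.24 and 2.32 CPM), Col1a2 and Col3a1 were higher at low levels. Among subunits and carriers outside the symbol rule, 7 of 13 were lower and 1 higher, with Cyc1 at -0.73 ± 0.065 and the adenine nucleotide carrier gene Slc25a5 at -0.47 ± 0.063. The part of these markers in the result was not tested.

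The decay difference is the log2 change in libraries labelled cKO since 0 h minus that in control libraries. At 3 h it was called above 0 for 24 members and below 0 for 18, against 11.0% and 8.39% of all genes tested, with a member median of -0.00. At 6 h it was above 0 for 22 and below 0 for 7, against 9.77% and 9.35%, with a median of 0.02. The comparisons share the 0 h libraries with each other and with the comparison before the drug, so their values are given side by side and not correlated.

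Complex I and ATP synthase held members at both ends at 3 h. Ndufv3, an accessory subunit of complex I, had 13.5 and 16.4 CPM at 0 h and 11.3 and 10.7 CPM at 3 h in cKO libraries, against 17.2 and 13.9 CPM and then 27.4 and 27.9 CPM in control. Its decay difference was -1.29 ± 0.194 (SE, n = 2 each, edgeR adjusted p = 4.57e-06). Atp5e stood at -1.28 ± 0.171, Atp5g1 at -1.07 ± 0.124 and Ndufb10 at -1.05 ± 0.136. Their 3 h levels in cKO libraries were 15.7 and 15.8 CPM for Atp5e, 34.7 and 29.4 CPM for Atp5g1 and 22.9 and 24.5 CPM for Ndufb10. In control libraries at 3 h they were 37.4 and 47.9, 88.0 and 86.4, and 54.4 and 54.0 CPM in the same order. Above 0 were Atp5k (1.12 ± 0.209), Cox7b (0.90 ± 0.094), Cox7a2l (0.89 ± 0.123) and Ndufv2 (0.88 ± 0.105). Cox7a2l had 99.3 and 96.6 CPM at 3 h in cKO libraries, against 54.4 and 50.9 CPM in control, while the 0 h libraries overlapped. In complex III 5 of 8 genes were above 0 and none below, with Uqcrq at 0.68 ± 0.100.

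Several of these differences were of like size at 6 h and others were not. Ndufv2 stood at 0.82 ± 0.107 at 6 h, Cox7a2l at 0.78 ± 0.129 and Atp5c1 at 0.61 at both times (SE 0.086 and 0.087). Sdhd, the sole complex II gene called, was at 0.48 ± 0.103 at 3 h and 0.57 ± 0.106 at 6 h. The difference before the drug enters these values. At 0 h, cKO over control stood at -0.64 for Ndufv2, -0.52 for Atp5c1 and -0.41 for Sdhd, all called lower, and at 0.0032 for Cox7a2l. A decay difference above 0 in the first 3 of these genes therefore does not by itself mean a higher later level in cKO libraries. Atp5e, which had changed by -0.14 ± 0.129 at 3 h in cKO libraries, had 53.2 and 59.7 CPM there at 6 h, against 97.4 and 96.3 CPM in control, and its 6 h decay difference was -0.60 ± 0.164. That call ended without control 0 h replicate 1 (-0.50, adjusted p = 0.0568) and without cKO 0 h replicate 2 (-0.49, 0.0662). Further members above 0 at 6 h were Ndufc1 (0.86 ± 0.164), Uqcrb (0.82 ± 0.162) and Ndufa4 (0.81 ± 0.093). Exons of Uqcrb overlap Gm10767 on the opposite strand. Cox4i1 (-0.52 ± 0.077), Uqcr11 (-0.53 ± 0.103), Uqcrh (-0.51 ± 0.105) and Ndufb7 (-0.53 ± 0.126, edgeR adjusted p = 0.00203) were below 0. Without cKO 0 h replicate 2, Ndufb7 stood at -0.35 (0.0522).

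**Figure D3:**
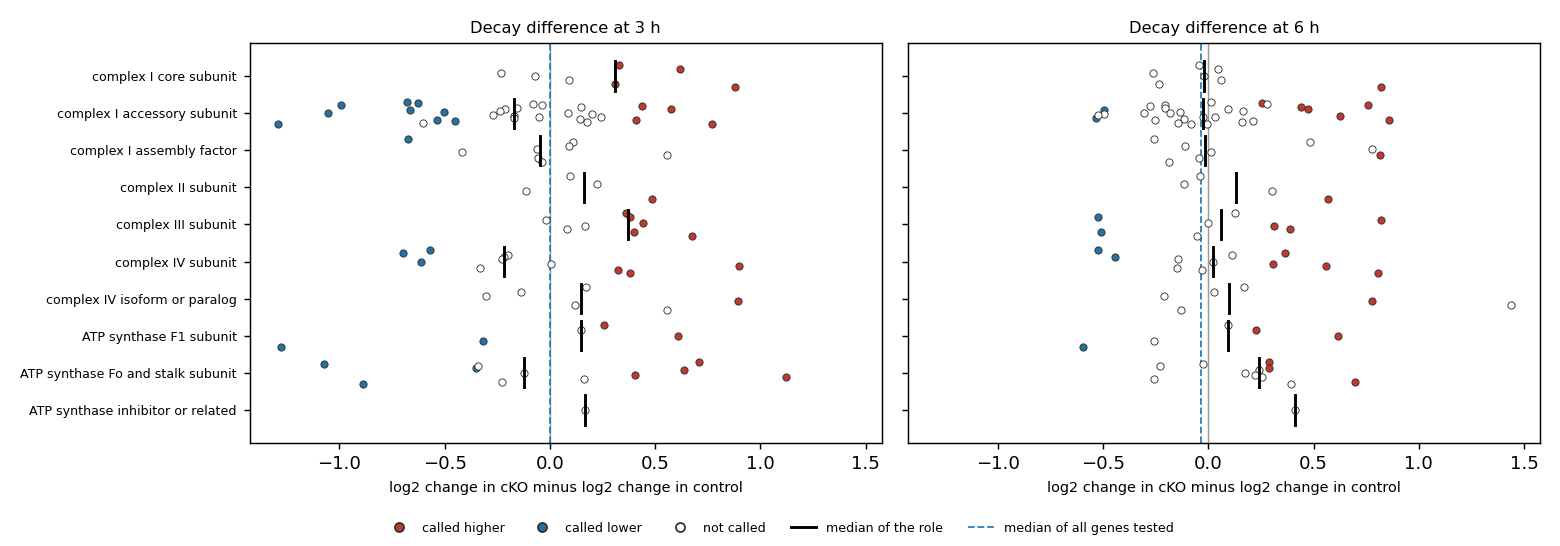
Decay difference of the 90 members tested, by role (rows), at 3 h (left) and 6 h (right). The horizontal axis is the log2 change since 0 h in libraries labelled cKO minus that in control libraries, on the TMM scale. Points are genes, black bars role medians, and the dashed line the median of all genes tested. At 3 h 24 members are called above and 18 below 0, and at 6 h 22 above and 7 below.

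Scaled to spike-in reads, 89 members stood above 0 at 3 h and none below, with a median of 2.35, close to the 2.36 of all genes. At 6 h 12 were above and 9 below on that scale. The members' values at 3 h therefore hold relative to other genes only. Without replicate 1 of control at 0 h, 12 in place of 22 members were called above 0 at 6 h, and without replicate 1 of cKO at 0 h, 11 in place of 7 were called below.

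In the Mettl3 lines the members differed from control in both directions. In KO1, 54 of 90 members were higher than control and 8 lower, against 23.9% and 22.2% of 21802 genes tested. In KO2, 33 were higher and 27 lower, against 24.4% and 26.4%. The median log2 fold change of the members was 0.20 in KO1 and 0.00 in KO2, against -0.01 and -0.03 for all genes tested. The lines share the control libraries, so their values stand side by side. The members' share of gene reads was 0.825% and 0.835% in KO1 and 0.726% and 0.723% in KO2, against 0.744% and 0.739% in control.

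Complex III genes were higher in 8 of 8 in KO1, and in 6 of 8 in KO2, where 1 was lower. Uqcr10 (ENSMUSG00000059534.8, mm10 chr11:4701973-4704342), a small subunit of complex III, had 85.6 and 92.3 CPM in KO1 and 110.2 and 103.3 CPM in KO2, against 54.7 and 50.2 CPM in control. All 4 libraries labelled KO lay above both controls. The log2 fold change was 0.76 ± 0.054 in KO1 (SE, n = 2 each, edgeR adjusted p = 2.89e-21) and 1.03 ± 0.054 in KO2 (7.61e-29), the sole change of 2-fold or more in KO2. Uqcrfs1 had 71.6 and 69.3 CPM in KO1 and 49.4 and 47.7 CPM in KO2, against 37.5 and 37.5 CPM in control. Its change was 0.91 ± 0.061 in KO1 and, named after its value was seen, 0.37 ± 0.063 in KO2.

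Ndufaf4, the assembly factor called lower under actinomycin D, had 48.5 and 54.3 CPM in KO1 and 29.6 and 28.1 CPM in KO2, against 25.2 and 23.6 CPM in control. Its rise of 1.07 ± 0.074 in KO1 (edgeR adjusted p = 4.78e-22) was the sole one of 2-fold or more there. In KO2 it was 0.25 ± 0.079 (0.00646), a value named after it was seen. Uqcrq, another small subunit, rose by 0.63 ± 0.042 in KO1 (named after its value was seen) and by 0.66 ± 0.042 in KO2. Ndufb4, an accessory subunit of complex I, had 129 and 125 CPM in KO1, against 70.8 and 78.7 CPM in control, a rise of 0.77 ± 0.049, and Atp5mpl, a small membrane subunit of ATP synthase, rose by 0.65 ± 0.046.

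Ndufa13, an accessory subunit of complex I also known as GRIM-19 (ENSMUSG00000036199.9, mm10 chr8:69894180-69902558), had 81.4 and 88.7 CPM in KO1 and 92.5 and 93.6 CPM in KO2, against 144.4 and 137.4 CPM in control. Its changes were -0.73 ± 0.047 and -0.60 ± 0.047 (edgeR adjusted p = 1.14e-23 and 3.13e-19). Its exons overlap those of Tssk6 on the opposite strand. Cox4i1 had 246.5 and 244.9 CPM in KO1 and 290.0 and 274.5 CPM in KO2, against 389.0 and 375.7 CPM in control, a change of -0.64 ± 0.035 in KO1 and, named after its value was seen, of -0.44 ± 0.035 in KO2. Ndufa7 had 50.1 and 52.2 CPM in KO2, against 81.2 and 79.7 CPM in control (-0.65 ± 0.057).

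Complex II showed different values in the lines. In KO1, Sdhb (0.39 ± 0.062), Sdha (0.28 ± 0.036), Sdhd (0.28 ± 0.070) and Sdhc (0.21 ± 0.073) were all higher, Sdhc with an adjusted p of 0.207 without control replicate 2 and 0.139 without KO1 replicate 1. In KO2, Sdha was higher (0.28 ± 0.036), Sdhb (-0.32 ± 0.065) and Sdhc (-0.29 ± 0.076) were lower, and Sdhd stood at -0.07 ± 0.073 (adjusted p = 0.436). The difference between the lines was not tested. Without control replicate 1, 5 in place of 8 members were called lower in KO1, and without KO1 replicate 1, 4 were. Of the ATP synthase genes, Atp5l rose in KO2 by 0.77 ± 0.071 and Atp5g3 fell by 0.32 on the log2 scale (SE 0.058), while Atp5a1 rose in KO1 by 0.43 ± 0.030. Cox5a had 56.3 and 57.6 CPM in KO2, against 33.7 and 39.0 CPM in control, a rise of 0.65 ± 0.067, while Cox5b changed by -0.44 ± 0.057.

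**Figure D4:**
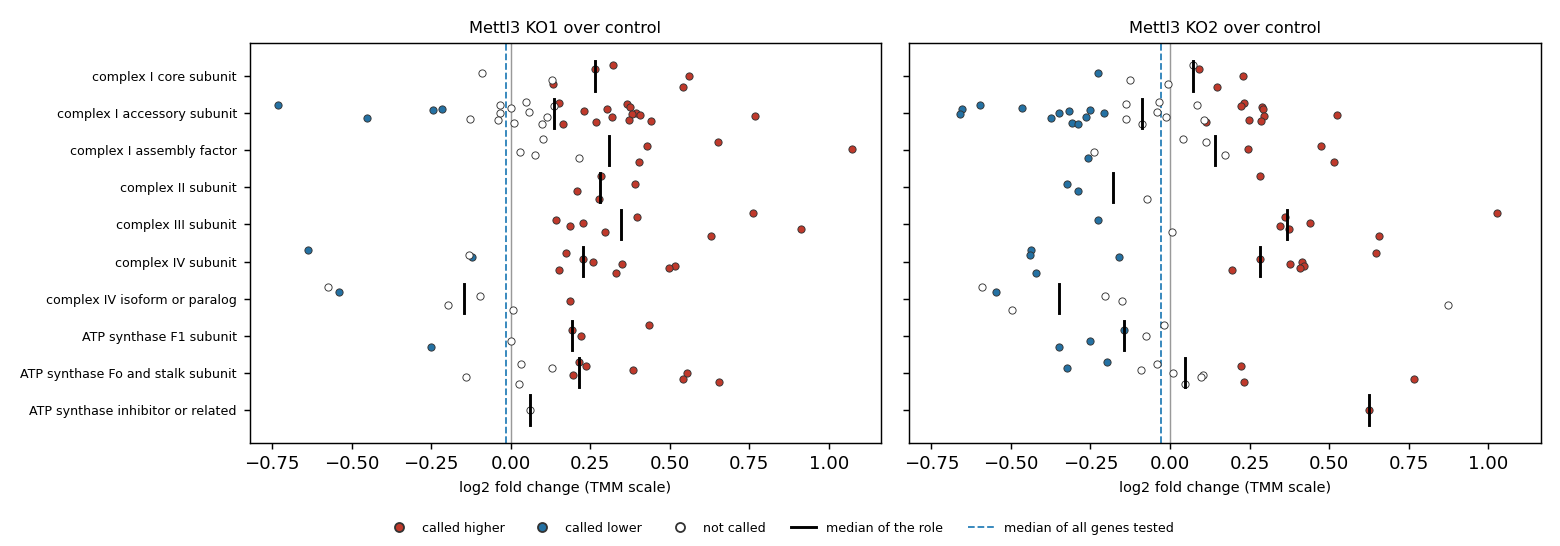
Change of the 90 members tested in Mettl3 KO1 (left) and KO2 (right) over the shared control, by role (rows). The horizontal axis is the log2 fold change from edgeR on the TMM scale. Points are genes, black bars role medians, and the dashed line the median of all genes tested. All 8 complex III points lie above 0 in KO1, and in KO2 33 members are called higher and 27 lower.

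The mitochondrially encoded subunit mRNAs were higher in 8 of 12 tested in KO1 (median 0.54) and in 12 of 12 in KO2 (median 1.22), and none was lower. Their share of gene reads was 1.04% and 1.02% in KO1 and 1.22% in both KO2 libraries, against 0.564% and 0.656% in control. Gabpa, which encodes the DNA-binding subunit of GABP and lies head to head with Atp5j, rose by 0.86 ± 0.042 in KO1 and 0.79 ± 0.043 in KO2. Myc, a known activator of mitochondrial genes, rose by 2.22 ± 0.106 in KO1, and its KO2 value is not given here. Gabpa and Myc are examples picked by low p from the regulators. Counts of regulators higher and lower in the Mettl3 lines are not given here, so these genes do not stand for the regulators as a group. Atp5j itself, taken up after its values were seen, had 132.5 and 129.8 CPM in KO1 and 89.7 and 90.1 CPM in KO2, against 85.9 and 92.5 CPM in control. Atp5j and Gabpa overlap on opposite strands, so reads between them cannot be separated without strand. Mitochondrial ribosomal protein genes were higher in 55 of 77 and lower in 1 in KO1, and higher in 28 and lower in 20 in KO2. Of 13 subunits and carriers outside the rule, 5 were higher and none lower in KO1, and 2 were higher and 5 lower in KO2. Cycs, which encodes the cytochrome c of somatic cells, was at -1.03 ± 0.071 in KO2 (edgeR adjusted p = 4.98e-22). Assembly factors outside the rule were higher in 17 of 43 and lower in 4 in KO1, and higher in 8 and lower in 10 in KO2. Tmem126b, a complex I assembly factor, was at -0.65 ± 0.097 in KO1 and -0.71 ± 0.099 in KO2.

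With scaling to spike-in reads, 66 members were higher and 4 lower in KO1 (median 0.39, all genes 0.17), and 83 higher and none lower in KO2 (median 0.56, all genes 0.53). The balance of 33 higher and 27 lower members in KO2 thus holds relative to other genes only. On the CPM scale without TMM factors, the summed feeder markers were 4912 ± 18.2 CPM in KO1 and 5551 ± 138 CPM in KO2. In control they were 3306 ± 40.6 CPM. Fn1 made up most of the sum, at 4541 and 4568 CPM in KO1 and 4782 and 4971 CPM in KO2. Its control libraries had 2939 and 3012 CPM. Vim was also higher in both lines. Col1a1 had 95.5 and 95.1 CPM in KO1 and 264 and 270 CPM in KO2, against 107 and 104 CPM in control. Col1a2 was likewise lower in KO1 and higher in KO2. Summed stem cell markers were 3870 ± 10.2 CPM in KO1 and 2570 ± 15.4 CPM in KO2, against 2906 ± 25.9 CPM in control. Tfcp2l1 had 1043 and 1031 CPM in KO1 and 833 and 852 CPM in KO2, against 539 and 536 CPM in control. Every other stem cell marker was lower in both KO2 libraries than in both control libraries, among them Nanog, with 244 and 242 CPM against 409 and 402 CPM. The 3 nuclear-retained RNAs took 1.05% of gene reads in KO1 and 1.09% in KO2, against 1.54% in control. Malat1 made up most of this share, at 9235 and 9268 CPM in KO1 and 8793 and 8712 CPM in KO2. Its control libraries had 13804 and 13761 CPM. Kcnq1ot1 was lower in KO1 but higher in KO2, where it had 1568 and 1572 CPM, against 978 and 1025 CPM in control. The part of these markers in the members' changes was not tested.

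**Figure D5:**
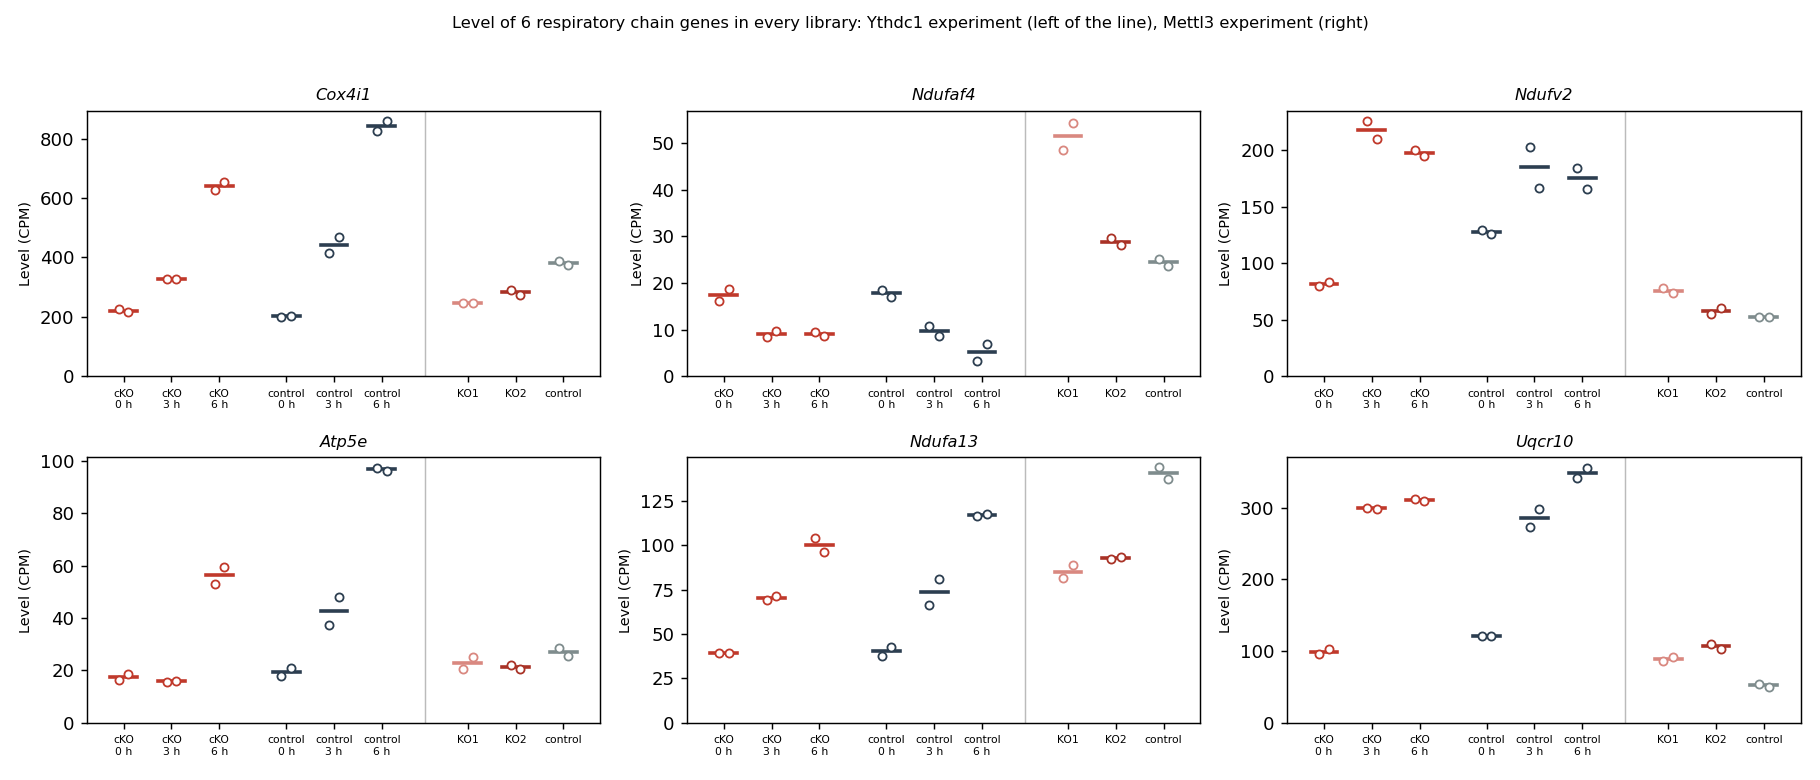
Level of Cox4i1, Ndufaf4, Ndufv2, Atp5e, Ndufa13 and Uqcr10 (CPM on the vertical axis, TMM-scaled within each experiment) in every library (circles) with the group mean (bars). Cox4i1 reaches 825.5 and 860.5 CPM in control at 6 h, Ndufaf4 is highest in KO1 at 48.5 and 54.3 CPM, and Ndufa13 is lower in all 4 libraries labelled KO1 or KO2 than in the Mettl3 control.

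Member mRNAs are short. The longest protein-coding transcript of each of the 90 members tested in the Ythdc1 experiment had a median of 913 bases, against 3130 over 14135 protein-coding genes tested, and their most exon-rich transcript had a median of 4 exons, against 9. Their median 3′ UTR was 190 bases, against 1089. The GC content was 50.4%, against 50.5%. Cytosolic ribosomal protein genes had a like length (914 bases) and mitochondrial ribosomal protein genes a longer one (1339 bases). Across the 90 members, the 6 h change in control correlated with GC content at a Spearman's rho of 0.514 (0.483 over all protein-coding genes), with transcript length at -0.402 (all genes -0.130) and with the span of the gene at -0.438 (all genes -0.051). In cKO libraries the values were 0.352 for GC content (all genes 0.340), -0.513 for length (-0.239) and -0.437 for span (-0.119). These points share their libraries and their depth, and are descriptions across genes.

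The core of the m6A consensus, GGACT, was present at least once in the longest transcript of 60 of the 90 members (66.7%), against 92.3% of all protein-coding genes tested, at a median of 0.961 per kilobase, against 1.05. It was present in 58.6% of cytosolic and 83.1% of mitochondrial ribosomal protein genes. Among members that changed in the Mettl3 lines, Uqcr10 and Ndufb4 held no GGACT in their longest transcript. Ndufa13 held 3 sites and Ndufa7 held 1, not all of which are shown. The sites shown come from some of the members that changed. They have 10 bases on each side, on the RNA strand, with GGACT in capitals. They lie in the coding sequence of Cox4i1 (chr8:120674067-120674091, plus strand) and of Ndufa13 (chr8:69894546-69894570, minus strand), in the coding sequence (chr4:24901835-24901859) and the 3′ UTR (chr4:24904946-24904970) of Ndufaf4 on the plus strand, and in the 3′ UTR of Uqcrfs1 (chr13:30540710-30540734, minus strand), all on mm10.
Cox4i1, coding: ccgccaagtgGGACTatgacaagaa
Ndufa13, coding: tgctgattgaGGACTtggaggccag
Ndufaf4, coding: ccagaaacatGGACTgctgagaaaa
Ndufaf4, 3′ UTR: atgtcatccaGGACTgcttttgtca
Uqcrfs1, 3′ UTR: ttagacacgtGGACTcagggcctag

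Members with and without these letters had like medians in KO1, 0.20 for 59 with and 0.23 for 31 without, and -0.02 and 0.11 in KO2. For all protein-coding genes the medians were 0.03 with and 0.10 without in KO1, and -0.028 with and -0.0033 without in KO2. Whether these letters are methylated in these cells was not measured here. The values are descriptions, without a test.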

How the data were processed

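The deposited values are counts per gene, which the authors made for 18 libraries of nuclear-fraction total RNA (2 per group, 9 groups). Per the labels' protocols, RNA was ribodepleted, ERCC spike-in RNA was added, and stranded libraries were made from random-primed cDNA. Per the submitters' processing notes the tools were CASAVA, Trimmomatic 0.38, HISAT2 2.1.0 and HTSeq, and the build mm10. How the counting treated strand, and with which gene models, is not given in the sources used here. Reads on 5 summary lines, which name no gene, were left out of library sizes. The share of reads counted to no gene feature ranged from 18.0% to 53.6%, and where these reads lie was not tested. That share fell during the drug. Untreated control libraries had 50.1% and 49.7%, untreated libraries labelled cKO 53.6% and 52.4%. After 3 h the Ythdc1 libraries ranged from 23.2% to 24.5%, after 6 h from 18.0% to 21.1%.

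Members and gene lists were chosen with earlier results of these data known. Symbols, types and positions came from GENCODE M21, where 54409 of 54446 identifiers were found. The 12 Ythdc1 libraries and the 6 Mettl3 libraries were each fitted together with edgeR 4.0.16 (R 4.3.3): TMM factors, an expression filter with a minimum count of 10, and quasi-likelihood F tests. The filter left 17900 and 21802 genes. The Benjamini-Hochberg adjustment ran over all of them, and an adjusted p below 0.05 was called, in 9 comparisons. SEs were taken from the log2 fold change and the F statistic. The fit was tested on simulated data. CPM values of single genes use the TMM factors; marker sums in CPM and read shares do not. Intervals and depth cover counting error only.

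In each comparison the genes named were taken, among members with a mean of at least 50 counts, from the highest and lowest of each role, the 5 highest and 5 lowest called, and the Sdh genes, and others are marked. Alternatives were DESeq2 1.42.0 (test and size factors), library size alone, spike-in scaling, other filters, the compared libraries alone, a replicate block, and leaving out each library. Another 2, without the cKO 3 h libraries and with only members free of exon overlap, were chosen after seeing the data. Same-numbered replicates did not deviate together: correlations of deviations ran from 0.0011 to 0.0426 between Ythdc1 groups and from -0.0337 to -0.005 between Mettl3 groups. No library was a copy of its replicate: the counts of replicates differed by a chi-square of 1.71 to 6.13 per degree of freedom.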

Additional observations from a re-analysis of the deposited data

Results flagged for a closer look

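A test of the decay difference itself (the log2 change since 0 h in libraries labelled cKO minus that in control libraries, edgeR interaction term, adjusted over all genes) called 15 of the named members at 3 h and 14 at 6 h, each from 2 libraries per group. At 3 h the values above 0 were 1.12 for Atp5k, 0.897 for Cox7b, 0.893 for Cox7a2l, 0.881 for Ndufv2, 0.769 for Ndufs6, 0.677 for Uqcrq, 0.611 for Atp5c1 and 0.484 for Sdhd. Those below 0 at 3 h were -1.29 for Ndufv3, -1.28 for Atp5e, -1.07 for Atp5g1, -1.05 for Ndufb10, -0.992 for Ndufa12, -0.696 for Cox5a and -0.672 for Ndufaf1. The Ndufaf1 call was lost on leaving out any 1 of 7 libraries.

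At 6 h the values above 0 were 0.86 for Ndufc1, 0.822 for Uqcrb, 0.819 for Ndufv2, 0.817 for Ndufaf6, 0.808 for Ndufa4, 0.777 for Cox7a2l, 0.696 for Atp5mpl, 0.614 for Atp5c1 and 0.57 for Sdhd. Those below 0 at 6 h were -0.597 for Atp5e, -0.531 for Ndufb7, -0.526 for Uqcr11, -0.525 for Cox4i1 and -0.508 for Uqcrh. The Ndufaf6 call ended on leaving out any 1 of 6 libraries. Scaled to spike-in reads, the 3 h values of Ndufv3, Atp5e, Atp5g1, Ndufb10, Ndufa12, Cox5a and Ndufaf1 were all above 0, and the low spike-in share of the cKO 3 h libraries moves with them. Its part in these values was not tested.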

How the results depend on the processing

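Of 168 called results for named members, all 168 kept direction and call with a replicate block, and no count moved by over 1.5 times (80 higher in control at 6 h with the block, as without it); same-numbered libraries did not deviate together, so the block pairs nothing. With DESeq2 size factors 165 kept the call, with a filter of 50 reads in 2 libraries 164, without a filter 163, with the compared libraries alone 162, with library size alone 162 and with the DESeq2 Wald test 158. Of 69 that could be computed without the cKO 3 h libraries, 68 did. The cause was not tested in any of these.

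Counts moved as follows. With 50 reads in 2 libraries, 2 members were lower in cKO at 6 h and 5 higher in cKO over control at 0 h. By the DESeq2 Wald test 5 were lower in KO1. With library size alone 2 were lower at 6 h, both in cKO and in control. Among members free of exon overlap, which are fewer, 53 were higher and 1 lower in control at 3 h, 52 higher in control at 6 h, 47 higher in cKO at 3 h, 53 higher in cKO at 6 h, 35 higher in KO1 and 17 lower in KO2. With 1 library left out, those lower ranged from 1 to 2 in control at 3 h, 2 to 7 in cKO at 3 h, 5 to 11 for the decay difference at 6 h and 4 to 11 in KO1, and those higher from 1 to 2 for cKO over control at 0 h and 12 to 22 for the decay difference at 6 h.

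Under settings other than spike-in scaling and leaving out a library, the following signs turned. In cKO at 6 h Ndufs3 was at -0.0437 (50 reads), -0.0234 (DESeq2 Wald), -0.000387 (DESeq2 size factors) and -0.0245 (library size). Cox7a2l in cKO over control at 0 h was at -0.0161 (Wald), -0.0158 (size factors), -0.0309 (library size) and -0.0415 (no filter). Atp5a1 in KO2 was at 0.00283 (50 reads), 0.00458 (Wald), 0.00445 (size factors) and 0.0042 (compared libraries). Uqcrb at 3 h (decay difference) was at 0.00274 (Wald), 0.00605 (library size) and 0.0223 (no filter). For the decay difference at 6 h, Sdha was at 0.108 and Sdhb at 0.0302 (library size), or 0.102 and 0.0271 (no filter). With 50 reads, Cox5a in cKO at 3 h was at -0.0161, Ndufs3 in cKO over control at 0 h at 0.00903 and Ndufaf5 in KO1 at -0.00738. With library size alone Ndufaf5 in KO1 was at -0.0235, Atp5l at 6 h in control at -0.0439 and Ndufs1 at -0.0130, the one called result to turn.

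Leaving out 1 library turned others, with ranges of -0.226 to 0.00673 and -0.203 to 0.0347 (Ndufab1, control 3 h and 6 h), -0.0726 to 0.286 (Cox5a, cKO 3 h), -0.267 to 0.146 (Atp5l, cKO 6 h) and -0.274 to 0.398 (Ndufs3, cKO 6 h). For cKO over control at 0 h they were -0.275 to 0.0505 (Atp5s), -0.0870 to 0.0799 (Cox7a2l) and -0.393 to 0.290 (Ndufs3). For decay differences they were -0.537 to 0.134 (Ndufs3, 3 h), -0.143 to 0.113 (Uqcrb, 3 h), -0.0194 to 0.685 (Atp5s, 6 h), -0.564 to 0.117 (Ndufs3, 6 h) and -0.0878 to 0.0058 (Sdha, 6 h). In KO1 they were -0.360 to 0.0995 (Atp5k), -0.134 to 0.300 (Atp5s) and -0.0184 to 0.0804 (Ndufaf5).

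Scaled to spike-in reads, 6 members were lower in control at 3 h, 43 higher and 22 lower in control at 6 h, none lower in cKO at 3 h, 51 higher and 13 lower in cKO at 6 h, 0 higher and 74 lower in cKO over control at 0 h, 89 above and 0 below for the decay difference at 3 h, 12 above at 6 h, 4 lower in KO1, and 83 higher and 0 lower in KO2. On that scale 52 named values turned. In control at 3 h they were -0.0580 for Cox7c and -0.14 for Uqcrfs1. In control at 6 h they were -0.45 for Atp5c1, -0.77 for Atp5l, -0.54 for Atp5s, -0.53 for Cox7a2l, -0.24 for Ndufa4, -0.0719 for Ndufaf3, -0.74 for Ndufs1, -0.36 for Sdhd and -0.55 for Uqcrfs1. In cKO at 3 h they were 1.69 for Atp5e, 1.45 for Atp5g1, 1.33 for Ndufa12, 1.23 for Ndufab1, 0.89 for Ndufaf4, 1.23 for Ndufaf5 and 1.30 for Ndufs3. In cKO at 6 h they were -0.18 for Atp5s, -0.25 for Cox7c, -0.96 for Ndufs3, -0.0439 for Sdha and -0.21 for Uqcrfs1. For cKO over control at 0 h they were -0.19 for Atp5l, -0.16 for Cox6c and -0.37 for Cox7a2l. For the decay difference at 3 h they were 1.08 for Atp5e, 1.29 for Atp5g1, 1.67 for Cox5a, 2.06 for Cox7a1, 1.36 for Ndufa12, 1.69 for Ndufaf1, 1.31 for Ndufb10, 2.12 for Ndufs3, 1.07 for Ndufv3, 2.25 for Sdhc and 2.34 for Uqcrb. In KO1 they were 0.0403 for Atp5k and 0.0949 for Ndufs3. In KO2 they were 0.54 for Atp5a1, 0.21 for Atp5e, 0.24 for Atp5g3, 0.12 for Cox5b, 0.0180 for Cox6b2, 0.41 for Cox7a2l, 0.0983 for Ndufa5, 0.30 for Ndufaf7, 0.34 for Ndufs3, 0.24 for Sdhb, 0.27 for Sdhc, 0.49 for Sdhd and 0.34 for Uqcrb.

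With 2 libraries a group and no statement of separate cultures, spread between cultures is not measured. Spike-in reads, 3932 to 33396 a library, limit that scale, and low members such as Cox8c rest on a few reads.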
